A study of Mus musculus with 6 samples.

Results

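The genes described here make, use or recycle glutathione and thioredoxin, or belong to the antioxidant program of the transcription factor NRF2. They were taken by symbol: 38 by family name (glutathione transferases, glutathione peroxidases, peroxiredoxins and thioredoxin reductases) and 22 by name. All 22 genes taken by name had a probe set. Family names were matched only to symbols present on the array, and no Prdx5 or Prdx6 was found there, so the families are not fully covered. The resulting 60 genes are set against all 25206 probe sets of the array. Transcripts were measured on 6 single-colour Affymetrix arrays of macrophages that were grown from mouse bone marrow. The 3 controls are labelled as treated with none, and no vehicle is named. The other 3 samples received JG-98, a small molecule that inhibits Hsp70 chaperones, for 16 hours. Its dose is labelled as 0.3 micromole, an amount with no volume. The labels give no strain, age or sex and do not state whether replicates are different animals or cultures. The p-values therefore reflect the scatter of these samples alone, and it may be technical.

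Glutathione is a small thiol peptide that reduces peroxides through glutathione peroxidases and is attached to foreign compounds by glutathione transferases. Thioredoxin is a small protein that does similar work on protein thiols and, through peroxiredoxins, on peroxides. Both are kept reduced with NADPH. In resting cells KEAP1 delivers NRF2 to a ubiquitin ligase. Oxidants and electrophiles modify KEAP1, and NRF2 then pairs with small MAF proteins and binds antioxidant response elements (ARE) near many of these genes. Macrophages rely on these systems while they make oxidants and degrade haem from engulfed red cells.

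Markers matched the labelled cell type. The 8 measured macrophage markers had mean log2 values between 8.36 and 12.03, and the 39 measured markers of neutrophils, erythroid, stromal, dendritic, B, T and NK cells and hepatocytes lay between 1.58 and 4.65. The mean of the macrophage markers was 10.19 to 10.24 on the control arrays and 10.08 to 10.16 on the JG-98 arrays. Of these 8 markers, 4 had separated groups with JG-98 lower, and 3 of them (Mertk, Mrc1 and C1qa) were at an unadjusted p under 0.05. The marker Cd68 was separated with JG-98 higher. Over all probe sets with a mean of 7 or more, 18.2% were separated with JG-98 lower and 14.0% with JG-98 higher. For the other cell types the mean was 3.08 to 3.20 and 3.09 to 3.35, with separated groups in 3 of 39 markers. The part of these markers in the results was not tested, and in bulk RNA fewer cells of a type and less RNA per cell cannot be told apart. Correlations over all probe sets were 0.992 to 0.993 between JG-98 replicate 3 and any other array, and 0.995 to 0.996 among the remaining 5, so results are also given without that array.

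None of the 60 antioxidant genes passed the test over all probe sets. With JG-98, 39 were at a higher mean and 21 at a lower one, against 50.3% of all probe sets higher. The test was limma's moderated test with Benjamini-Hochberg adjustment, in which 10 probe sets (0.0397%) had an adjusted p under 0.05. The smallest limma adjusted p among the members was 0.22, for Gsto1. At an unadjusted p under 0.05, 10 members were higher with JG-98, which is 16.7% of them, against 3.84% of all probe sets. Of the members, 1 was lower (1.67%), against 4.48% of all. The groups were separated, with no overlap of their arrays, and JG-98 higher in 12 members (20.0%, against 7.12% of all probe sets). They were separated with JG-98 lower in 3 members, Gsto2, Gstt3 and Prdx4 (5%, against 8.44%). The median log2 difference, JG-98 minus control, was 0.054 over the members and 0.001 over all probe sets. Per array, the median member stood 0.058, 0.049 and 0.025 above its control mean on JG-98 replicates 1, 2 and 3. On control replicate 1 it stood 0.045 above, with 45 of 60 members higher, so the shift over all members was about the size of the offset of 1 control array.

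These counts moved with single arrays. The 10 higher members became 5 without control replicate 2 (3.06% of all probe sets), and 14 without JG-98 replicate 3 (23.3%, against 5.05% of all probe sets). After each array was centred on its median there were also 5, against 2.33% of all. The 1 lower member became 2 without control replicate 2 (3.19% of all) and 3 without JG-98 replicate 2 (4.09% of all). The 12 members separated with JG-98 higher became 20 without JG-98 replicate 3 (33.3%, against 13.7% of all), 18 without control replicate 1 (11.3% of all) and 7 after median centring (4.51% of all). The 3 members separated with JG-98 lower became 5 without JG-98 replicate 3 (8.33%, against 16.7% of all), 5 without control replicate 3 (12.7% of all), 7 without control replicate 2 (12.5%) and 8 without JG-98 replicate 2 (13%). Fewer arrays separate more probe sets of any kind, so these counts are to be read against those shares. The 10 calls over all probe sets became 5 without JG-98 replicate 3 (0.0198%), with no member among them, and 0 when any other single array was left out.

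**Figure D1:**
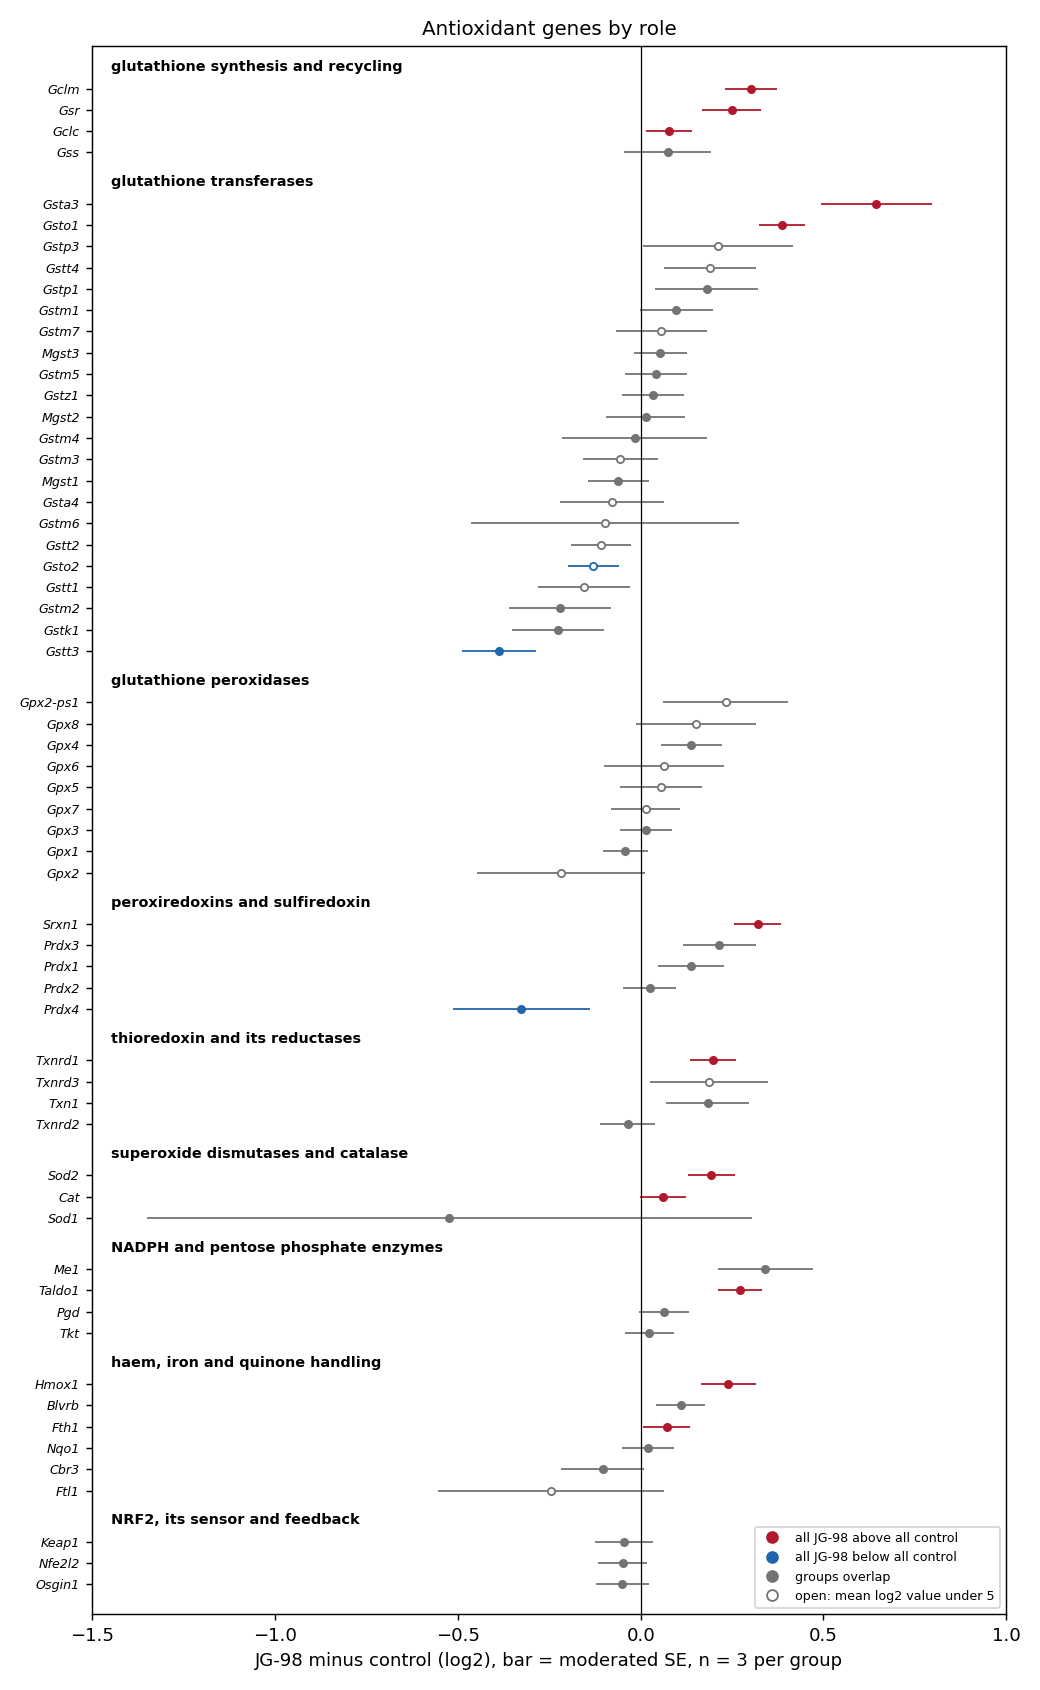
The log2 difference of each of the 60 genes, JG-98 minus control, is plotted by role with its moderated SE (n = 3 per group). Red marks the 12 genes with separated groups and JG-98 higher, blue the 3 with JG-98 lower, and open points those with a mean log2 value under 5.

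By level, 11 of the 12 members separated with JG-98 higher were bright. Of the 27 members with a mean log2 value of 7 or more, 21 were higher with JG-98, against 2650 of all 5591 probe sets at such levels, and 11 were separated in that direction (40.7%, against 14.0% of those probe sets). Of the 16 members with a mean from 5 to 7, 1 was, Gsta3 (6.25%, against 8.45% of all). Of the 17 members with a mean under 5, 0 were, against 4.16% of all, and such dim values may be background. The median bright member stood 0.12 and 0.11 above its control mean on JG-98 replicates 1 and 2, and 0.029 above it on JG-98 replicate 3. On control replicate 1 it stood 0.038 above that mean. All probe sets at such levels had medians of 0.0087, 0.013 and -0.041 on JG-98 replicates 1, 2 and 3, and 0.013 on control replicate 1. The bright members were thus above the other bright probe sets on each JG-98 array, by the least on replicate 3, and by less than that on control replicate 1.

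**Figure D2:**
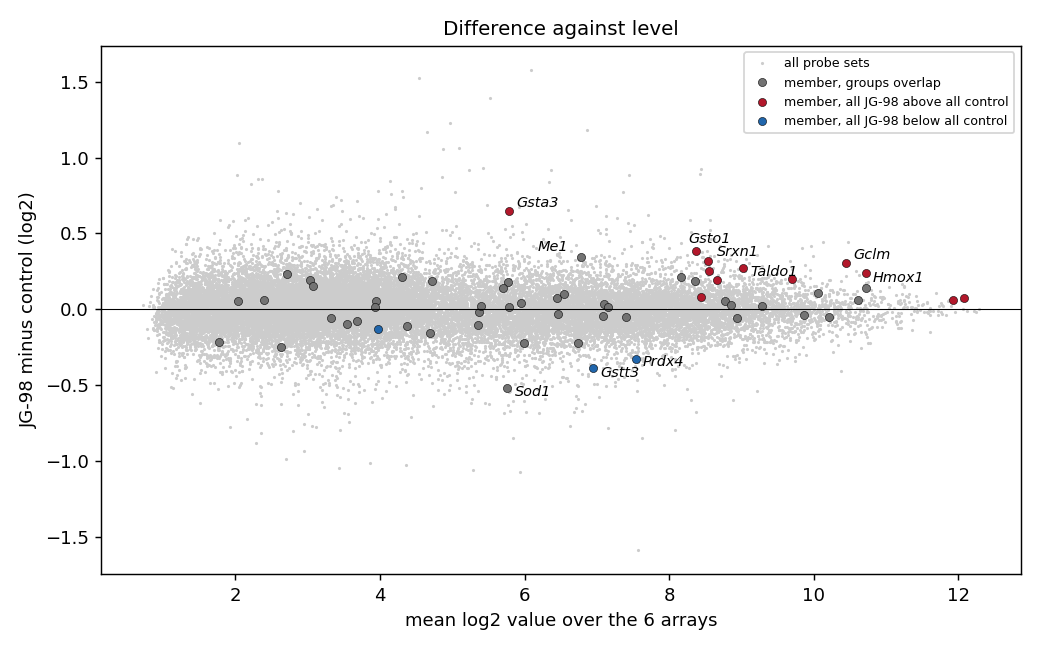
The log2 difference (vertical axis) is plotted against the mean log2 value over the 6 arrays (horizontal axis) for all 25206 probe sets as small grey dots and for the 60 antioxidant genes as outlined points, dark grey where the groups overlap and blue where JG-98 is lower without overlap. Of the 12 red points, whose groups are separated with JG-98 higher, 11 have a mean of 7 or more.

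The number of members that passed the test depended on which dim probe sets entered it and on how the variance was modelled. With only probe sets above 5 on at least 3 arrays (43 members), 4 members rose: Gclm, Gsto1, Srxn1 and Taldo1 (limma adjusted p = 0.04997, 0.018, 0.032 and 0.037). In that fit 2.28% of probe sets passed. With a variance that follows intensity, those 4 and Txnrd1 rose (limma adjusted p from 0.0058 to 0.039), where 1.01% of probe sets passed. With only probe sets above 7 (28 members), 8 rose and 1 fell, where 10.0% passed. The 8 were Gclm, Gsr, Gsto1, Srxn1, Txnrd1, Sod2, Taldo1 and Hmox1. The 1 that fell, Gstt3, entered that fit only through its 3 control values. Its groups therefore had to be separated with JG-98 lower, which favoured its call.

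In the synthesis and recycling of glutathione, all 4 genes were higher with JG-98 and 3 had separated groups. Over all probe sets 50.3% were higher and 7.12% were separated with JG-98 higher, or 14.0% of those with a mean of 7 or more. Gclm encodes the modifier subunit of glutamate-cysteine ligase, which makes the first bond of glutathione. Its log2 values were 10.35, 10.26 and 10.29 in the controls and 10.65, 10.64 and 10.51 with JG-98. The groups did not overlap, and JG-98 replicate 3 was the lowest of its group. The difference was 0.30 ± 0.071 (SE, n = 3 per group), or 1.23-fold (limma adjusted p = 0.36), and 0.35 without JG-98 replicate 3. Gsr, the reductase that returns oxidised glutathione to its reduced form, was at 8.51, 8.33 and 8.46 in the controls. With JG-98 it was at 8.78, 8.64 and 8.63, all above the controls. Its difference was 0.25 ± 0.081 (limma adjusted p = 0.50).

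The other subunit and the second enzyme of the pathway differed less. Gclc, the catalytic subunit of the ligase, was at 8.37, 8.41 and 8.41 in the controls and at 8.52, 8.47 and 8.43 with JG-98. The groups were just separated, and the difference was 0.08 ± 0.063 (limma adjusted p = 0.80), with a 95% interval from -0.07 to 0.23. Gss, which adds glycine to complete glutathione, was at 6.55, 6.30 and 6.37 in the controls and at 6.52, 6.65 and 6.28 with JG-98. These values overlapped fully. The difference of 0.07 ± 0.12 was -0.0098 when JG-98 replicate 2 was left out and 0.18 when replicate 3 was.

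The 22 glutathione transferase genes did not move together, with 11 higher and 11 lower with JG-98 and a median difference of -0.001. Gsto1 encodes an omega-class enzyme that reduces dehydroascorbate and acts on protein thiols. It stood at 8.15, 8.19 and 8.18 in the controls and at 8.59, 8.59 and 8.50 with JG-98. Both groups were tight and well apart. The difference was 0.39 ± 0.063, or 1.31-fold (limma adjusted p = 0.22), and 0.41 without JG-98 replicate 3. Gsta3 encodes an alpha-class transferase. It had the largest difference of the 60, from 5.51, 5.51 and 5.36 to 6.29, 6.27 and 5.76. JG-98 replicate 3 again lay closest to the controls. The difference was 0.64 ± 0.15 (limma adjusted p = 0.36), and 0.82 without that array. The stromal marker Col1a1 reached 5.10 on JG-98 replicate 3, so part of the control signal of Gsta3 may be background, and no fold is given.

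Gstt3, a theta-class transferase, was the clearest member in the other direction. It stood at 7.23, 7.11 and 7.10 in the controls and at 6.77, 6.92 and 6.59 with JG-98, with no overlap. The difference was -0.39 ± 0.10, or 1.31-fold lower (limma adjusted p = 0.40), and -0.30 without JG-98 replicate 3. In the RefSeq gene order Gstt3 heads a run with Gstt1, Gstt4 and Gstt2 on chromosome 10. Their differences were -0.16, 0.19 and -0.11, and all overlapped. Gsto1 lies next to Gsto2 on chromosome 19, which was dim, at a mean of 3.97, and differed by -0.13 ± 0.070 with separated groups. The 7 Gstm genes form a run on chromosome 3 and differed by -0.22 to 0.10, none with separated groups. Genes of one transferase class have similar sequences, so their probes may not tell them apart fully. The microsomal Mgst1, Mgst2 and Mgst3 differed by -0.06, 0.01 and 0.05.

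None of the 9 glutathione peroxidase genes had separated groups. Over all probe sets 7.12% were separated with JG-98 higher and 8.44% with JG-98 lower, so a count of 0 among 9 says little. Glutathione peroxidases reduce peroxides with glutathione, and Gpx4 acts on lipid peroxides in membranes. Gpx4 was at 5.75, 5.54 and 5.60 in the controls and at 5.74, 5.71 and 5.86 with JG-98, which overlap. Its difference was 0.14 ± 0.084 (limma adjusted p = 0.73). Gpx1, the widely expressed cytosolic form, differed by -0.04 ± 0.061, with a 95% interval from -0.19 to 0.10. Gpx3 differed by 0.01 ± 0.072. The other 6, one of them the pseudogene Gpx2-ps1, had mean log2 values of 1.77 to 3.93, which may be background.

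Among the peroxiredoxins and their repair enzyme, Srxn1 stood out. It encodes sulfiredoxin, which restores peroxiredoxins that were over-oxidised by peroxide. Its values were 8.43, 8.33 and 8.39 in the controls and 8.69, 8.67 and 8.75 with JG-98. All JG-98 arrays were higher, and here JG-98 replicate 3 was the highest. The difference was 0.32 ± 0.065, or 1.25-fold (limma adjusted p = 0.29), and 0.30 without that array. Prdx1, a cytosolic peroxiredoxin, and Prdx3, a mitochondrial one, differed by 0.14 ± 0.092 and 0.22 ± 0.10. In both, JG-98 replicates 1 and 2 were above all controls and replicate 3 was not. Prdx2, at 0.03 ± 0.073, overlapped. Prdx4, the form of the endoplasmic reticulum, was at 7.77, 7.71 and 7.62 in the controls and at 7.61, 7.59 and 6.93 with JG-98. The groups were just separated, and JG-98 replicate 3 was far the lowest array. The difference was -0.33 ± 0.19, and -0.10 without that array.

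In the thioredoxin system, Txnrd1 had separated groups. It encodes the cytosolic selenoenzyme that reduces thioredoxin with NADPH. It was at 9.63, 9.55 and 9.61 in the controls and at 9.76, 9.81 and 9.81 with JG-98. The gap between the groups was small but held on every array. The difference was 0.20 ± 0.062, or 1.15-fold (limma adjusted p = 0.48). Txn1, cytosolic thioredoxin, was at 8.27, 8.37 and 8.14 in the controls and at 8.61, 8.47 and 8.25 with JG-98. JG-98 replicate 3 fell among the controls. Its difference of 0.18 ± 0.11 became 0.28 without that array and 0.099 without JG-98 replicate 1. The mitochondrial Txnrd2 differed by -0.04 ± 0.075, and Txnrd3, at a mean of 4.72, by 0.19 ± 0.16.

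Of the enzymes that remove superoxide and hydrogen peroxide, mitochondrial superoxide dismutase Sod2 was at 8.60, 8.56 and 8.53 in the controls and at 8.71, 8.79 and 8.77 with JG-98. Its groups were separated, with a difference of 0.19 ± 0.064 (limma adjusted p = 0.51). Catalase, Cat, was also just separated, at 11.85 to 11.92 in the controls and from 11.93 upward with JG-98, with a difference of 0.06 ± 0.063. The cytosolic Sod1 was at 6.17, 5.58 and 6.32 in the controls and at 6.52, 6.56 and 3.43 with JG-98. The value on JG-98 replicate 3 lay far below the other 5 arrays. The difference of -0.52 ± 0.83 therefore turned to 0.51 without that array, and no direction can be read for Sod1.

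The 4 NADPH and pentose phosphate enzymes were all higher with JG-98, and 1 had separated groups. The shares over all probe sets were 50.3% higher and 7.12% separated with JG-98 higher, and 14.0% separated so at a mean of 7 or more. Taldo1, the transaldolase of the pentose phosphate pathway, was at 8.91, 8.85 and 8.90 in the controls and at 9.17, 9.13 and 9.18 with JG-98. All 3 JG-98 arrays were alike. The difference was 0.27 ± 0.061, or 1.21-fold (limma adjusted p = 0.35). Me1, malic enzyme, which makes NADPH from malate, was at 6.86, 6.44 and 6.54 in the controls and at 7.0, 7.07 and 6.80 with JG-98. Control replicate 1 overlapped the JG-98 group. The difference was 0.34 ± 0.13 (limma adjusted p = 0.56). Pgd, which makes NADPH in the oxidative branch, differed by 0.06 ± 0.068, and the transketolase gene Tkt by 0.02 ± 0.067.

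In haem, iron and quinone handling, 1 of 6 genes, Hmox1, was higher at an unadjusted p under 0.05, against 3.84% of all probe sets. Hmox1 encodes the inducible haem oxygenase, which breaks haem into biliverdin, iron and carbon monoxide. It was at 10.65, 10.51 and 10.63 in the controls and at 10.86, 10.90 and 10.76 with JG-98. The groups did not overlap, and the difference was 0.24 ± 0.075, or 1.18-fold (limma adjusted p = 0.48). Blvrb, a biliverdin reductase, and Fth1, the heavy chain of the iron store ferritin, differed by 0.11 ± 0.068 and 0.07 ± 0.064. Fth1 was just separated, at 12.03 to 12.05 and 12.05 to 12.17. The probe set of the ferritin light chain gene Ftl1 was dim, at 1.96 to 3.10, and tells nothing on that transcript here.

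Nqo1, the quinone reductase often used as a marker of NRF2 activity, was at 5.41, 5.30 and 5.46 in the controls. With JG-98 it was at 5.38, 5.44 and 5.41, within the control range. The difference was 0.02 ± 0.071 (limma adjusted p = 0.97), with a 95% interval from -0.15 to 0.19. Without control replicate 2 it was -0.028. The level of Nqo1 was low: the stromal marker Col1a1 reached 5.10 on JG-98 replicate 3, so part of the Nqo1 signal may be background. Cbr3, a carbonyl reductase, differed by -0.10 ± 0.11.

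NRF2 itself, its sensor and its feedback gene did not differ beyond the spread of the arrays. Nfe2l2, which encodes NRF2, was at 10.26, 10.20 and 10.23 in the controls and at 10.21, 10.22 and 10.11 with JG-98. These overlapped, and the difference was -0.05 ± 0.066 (limma adjusted p = 0.90), with a 95% interval from -0.21 to 0.11. Keap1 was at 7.11, 7.19 and 7.0 in the controls and at 7.05, 7.13 and 6.99 with JG-98, and differed by -0.05 ± 0.079, with an interval from -0.23 to 0.14. Osgin1, a target of NRF2 that restrains growth, was at 7.42, 7.43 and 7.44 in the controls and at 7.41, 7.46 and 7.27 with JG-98. It differed by -0.05 ± 0.073, with an interval from -0.22 to 0.12. Keap1 was at 0.00096 without control replicate 2, and Osgin1 at 0.0036 without JG-98 replicate 3. NRF2 is controlled largely through the stability of its protein, which transcript levels do not measure.

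**Figure D3:**
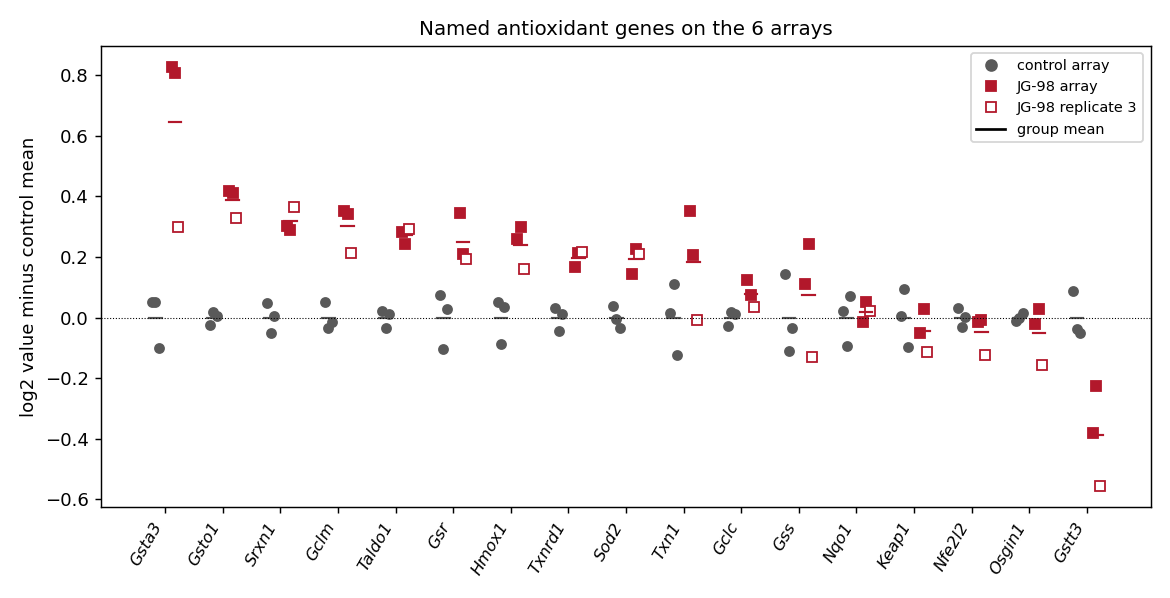
The log2 value of each named gene on every array, minus that gene's control mean, is plotted for the 3 control arrays (circles) and the 3 JG-98 arrays (squares, replicate 3 open), with lines at group means. From Gsta3 to Sod2, and for Gclc, the squares lie above all circles, and for Gstt3 below them.

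Start site sequences were searched for the core of the ARE, spelled TGACNNNGC, on both strands. RefSeq (GRCm38.p6) windows from 250 bases before to 50 after a start were found for 54 of the 60 members. Gclc, Gsr, Gsta4, Gpx2-ps1, Gstt2 and Hmox1 had no entry. The core was present in 12 of the 54 genes (22.2%), and in 15.0% of the named genes of the array with an entry. By window the shares were 16.7% for the members, 13.1% for the named genes of the array and 12.4% for all 32851 windows. Of the 12 members separated with JG-98 higher, 9 had an entry and 4 held a core, namely Gclm, Gsta3, Srxn1 and Txnrd1. Members with overlapping groups held it as well, among them Prdx1, Me1, Pgd, Mgst1, Gstm5, Gstm7, Sod1 and Nfe2l2. A match is a description of these letters, not a site.

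The 250 bases before the start are shown for 3 genes with separated groups and a core in that stretch, and for Prdx1, whose groups overlapped. Capitals mark the core, which in Gclm, Txnrd1 and Prdx1 lies on the opposite strand. The Gclm stretch is chr3:122245307-122245556, plus strand, with the core at -134 to -126 from the start. That of Gsta3 is chr1:21240335-21240584, plus strand, with the core at -121 to -113. That of Txnrd1, from the second of its 3 starts, is chr10:82858956-82859205, plus strand, with the core at -92 to -84. That of Prdx1 is chr4:116685349-116685598, plus strand, with the core at -133 to -125.
Gclm: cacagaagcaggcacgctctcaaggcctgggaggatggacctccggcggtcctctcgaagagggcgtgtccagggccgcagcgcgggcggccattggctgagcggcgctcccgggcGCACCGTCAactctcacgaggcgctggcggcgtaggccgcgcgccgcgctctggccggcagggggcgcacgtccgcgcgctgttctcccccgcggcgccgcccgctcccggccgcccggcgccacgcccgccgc
Gsta3: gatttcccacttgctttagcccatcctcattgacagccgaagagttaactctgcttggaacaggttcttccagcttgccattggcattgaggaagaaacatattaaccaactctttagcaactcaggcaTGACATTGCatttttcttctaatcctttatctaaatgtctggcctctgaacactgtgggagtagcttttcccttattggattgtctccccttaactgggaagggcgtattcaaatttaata
Txnrd1: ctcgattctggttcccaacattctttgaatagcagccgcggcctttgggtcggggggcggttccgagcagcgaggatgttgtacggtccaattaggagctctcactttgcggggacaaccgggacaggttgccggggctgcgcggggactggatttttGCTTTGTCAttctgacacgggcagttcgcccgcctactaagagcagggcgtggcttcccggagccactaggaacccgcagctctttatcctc
Prdx1: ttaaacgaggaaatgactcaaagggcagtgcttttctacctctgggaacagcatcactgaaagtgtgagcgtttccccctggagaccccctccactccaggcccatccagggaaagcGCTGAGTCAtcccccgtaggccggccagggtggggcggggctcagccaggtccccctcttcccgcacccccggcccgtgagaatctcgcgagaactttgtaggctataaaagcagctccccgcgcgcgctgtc

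Of genes around the member list, 64 were listed and 61 measured, with G6pdx, Ggt1 and Akr1b3 not analysed here. The groups were separated with JG-98 higher in 13 of the 61 (21.3%, against 7.12% of all probe sets) and with JG-98 lower in 4 (6.56%, against 8.44%). Of the 61, 35 had a mean of 7 or more. At that level 14.0% of all probe sets were separated with JG-98 higher and 18.2% with JG-98 lower. The list was made with earlier results of these data known, so an excess over such shares may be built in. The 13 became 22 without JG-98 replicate 3 (36.1%, against 13.7% of all). Their median difference was 0.043. Over all probe sets 1 of them passed, Slc6a9, a transporter of glycine, the last amino acid added to glutathione. It rose from 4.20, 4.10 and 3.90 to 5.16, 5.33 and 5.22, by 1.17 ± 0.098 (limma adjusted p = 0.026). The call was lost when any 1 of the 6 arrays was left out (limma adjusted p from 0.12 to 0.25), while the difference stayed between 1.09 and 1.24.

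Of 6 measured genes of cystine and cysteine supply, Slc7a11 differed by more than any member, also without JG-98 replicate 3. Slc7a11, the exchanger that brings in cystine, was at 3.66, 3.85 and 3.84 in the controls and at 5.48, 5.59 and 4.86 with JG-98. The groups were far apart, with JG-98 replicate 3 the lowest of its group. The difference was 1.53 ± 0.19 (limma adjusted p = 0.13). Without JG-98 replicate 3 it rose, by 1.75 (limma adjusted p = 0.022). Slc1a4, which carries neutral amino acids such as serine and cysteine, was at 4.39, 3.89 and 4.23 in the controls and at 5.10, 4.73 and 5.08 with JG-98. Its difference was 0.80 ± 0.16 (limma adjusted p = 0.29), and 0.75 without JG-98 replicate 3. Slc3a2, the partner chain of Slc7a11, differed by 0.12 ± 0.079, with overlap. Chac1, which degrades glutathione and is known as a target of ATF4, was at 4.64, 4.73 and 4.59 in the controls and at 5.69, 5.53 and 5.06 with JG-98. Its difference was 0.77 ± 0.16 (limma adjusted p = 0.31). The control values of Slc7a11, Slc1a4, Chac1 and Slc6a9 lie at levels that markers of other cell types also reach, so they may be background, and no fold is given for these genes.

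Of the 47 related genes with a start window, 11 (23.4%) held an ARE core, against 15.0% of the named genes of the array. Slc6a9 and Sesn2 were among them, as were Abcc4 and Blvra, whose groups overlapped. The Slc7a11 start window held none. It held 2 copies of TGATGNAA, the core of the C/EBP-ATF response element bound by ATF4 with C/EBP partners, which do not overlap each other. That core, searched on both strands, was in 3.97% of all windows and in 4.48% of those of the related genes. Slc6a9 and Sesn2 did not hold it, and Chac1 and Slc1a4 did. None of the 72 windows of the members did, which says little at so low a share. The 250 bases before the Slc7a11 start, chr3:50443614-50443863, minus strand, are shown with both copies in capitals, the second on the opposite strand.
Slc7a11: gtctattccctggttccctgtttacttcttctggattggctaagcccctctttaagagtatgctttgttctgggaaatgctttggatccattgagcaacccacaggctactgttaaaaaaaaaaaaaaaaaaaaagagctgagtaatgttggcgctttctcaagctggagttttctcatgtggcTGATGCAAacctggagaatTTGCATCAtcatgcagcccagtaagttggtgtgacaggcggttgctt

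Other related genes differed by smaller amounts, in both directions. Txnip, which binds and inhibits thioredoxin, was at 10.63, 10.59 and 10.54 in the controls and at 10.19, 10.22 and 10.12 with JG-98. All JG-98 arrays were lower, and the difference was -0.41 ± 0.066 (limma adjusted p = 0.21). Abcc1, which exports glutathione conjugates, was at 8.59, 8.59 and 8.60 in the controls and at 8.91, 8.80 and 8.80 with JG-98, a difference of 0.25 ± 0.065. Sesn2, a stress-induced sensor of leucine, was at 7.55, 7.57 and 7.60 in the controls and at 7.90, 7.79 and 7.90 with JG-98, a difference of 0.28 ± 0.066. The groups were separated in both. Tfrc, the receptor that takes up iron on transferrin, was at 8.0, 7.79 and 7.94 in the controls and at 8.30, 8.28 and 8.11 with JG-98, a difference of 0.32 ± 0.089. Slc40a1, the iron exporter ferroportin, was at 10.44, 10.47 and 10.44 in the controls and at 10.27, 10.22 and 10.14 with JG-98, a difference of -0.24 ± 0.066. The 2 iron genes were thus separated in opposite directions. With only probe sets above 7 on at least 3 arrays, where 10.0% of probe sets passed, 8 related genes passed. Txnip, Slc40a1 and Nnt fell, and Abcc1, Sesn2, Tfrc, Nfe2l1 and Sqstm1 rose (limma adjusted p from 0.0026 to 0.049). Nnt, Nfe2l1 and Sqstm1 were named after their values were seen. With the intensity trend, where 1.01% passed, 7 related genes did. Slc7a11, Slc6a9, Abcc1, Sesn2 and Sqstm1 rose and Txnip and Slc40a1 fell (limma adjusted p from 0.0020 to 0.042).

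**Figure D4:**
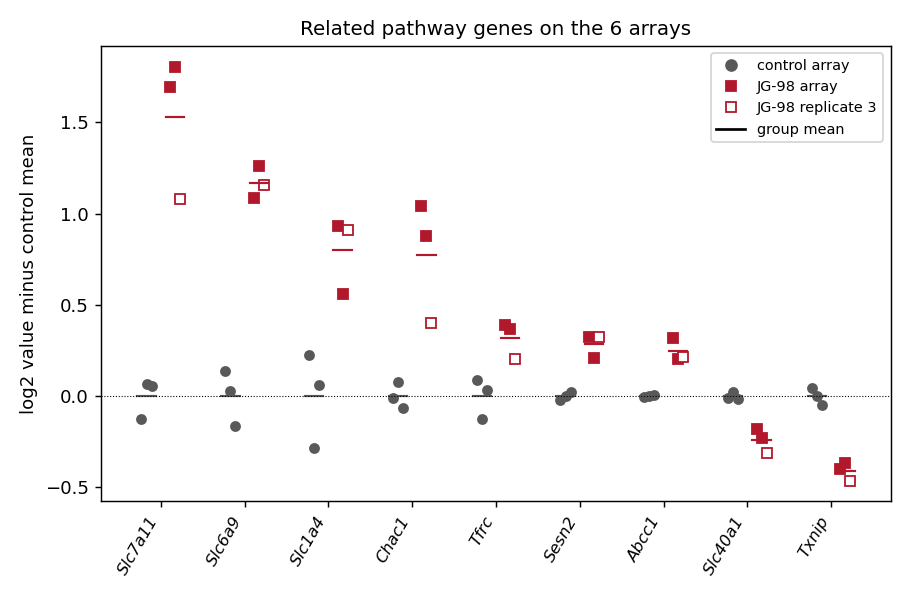
The log2 value of 9 related genes on every array, minus the gene's control mean, is plotted for the 3 control arrays (circles) and the 3 JG-98 arrays (squares, replicate 3 open), with lines at group means. Slc7a11 and Chac1 show JG-98 replicate 3 between the controls and the other JG-98 arrays.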

How the data were processed

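Expression was measured on 6 Affymetrix arrays, 3 control and 3 JG-98, grouped by their titles. The deposited values are on a log2 scale, with 1 value for each probe set of an array. The submitters' processing notes name RMA, affy and R 2.15.1 but give no roles. RMA, as generally defined, normalizes arrays against each other, which removes a shift of all genes together. Array medians lay between 4.08 and 4.24. Genome build: not given in the sources used here. Precision is limited by the number of arrays.

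Of 25206 probe sets, 23185 had 1 symbol in the platform annotation, 0 several and 2021 none. All 23185 matched RefSeq by Entrez number. Differences (JG-98 minus control) and moderated SEs were computed with lmFit and eBayes of limma 3.58.1 under R 4.3.3, two-sided and without covariates, with Benjamini-Hochberg adjustment over all probe sets and a threshold of 0.05. The fit was tested on simulated data. Recovery was required there only for planted differences larger than that of any member, so it does not show the power at the sizes reported here. Member and gene lists were chosen with earlier results of these data known. Array values are given for 12 core members and, per role, up to 3 members with separated groups and an unadjusted p under 0.05. Of the related genes they are given for Slc7a11 and up to 8 others by the same rule. Other genes named, among them Sod1, Prdx4, Me1, Gpx4 and Slc3a2, were chosen after their values were seen. Other settings were scaling, filters on dim probe sets, variance priors, array weights (statmod 1.5.0), the replicate block and leaving out each array.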

Additional observations from a re-analysis of the deposited data

How the results depend on the processing

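The probe sets called over the whole array were 10, against 234 with a filter at 5, 568 with a filter at 7, 254 with an intensity trend, 25 with array weights and 0 with the replicate block. Leaving out 1 array gave 0 to 5. Members called were 0, against 4, 9 and 5 with the filters at 5 and at 7 and the intensity trend, and 0 without any single array. Members at an unadjusted p under 0.05 and higher with JG-98 were 10, against 5 after median centring, and 5 to 14 without single arrays. Those lower were 1, against 2 with array weights and 1 to 3 without single arrays. Members with separated groups and JG-98 higher were 12, against 7 after median centring, and 12 to 20 without single arrays. Those with JG-98 lower were 3, and 3 to 8 without single arrays. The median member difference of 0.054 became 0.035 after median centring and was 0.039 to 0.061 without single arrays. That of the related genes was 0.028 to 0.053.

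Of 395 values of 29 named genes under other settings, 6 changed sign. These were Gss (-0.0098 to 0.18 over the arrays left out, negative without JG-98 replicate 2), Nqo1 (-0.028 to 0.056) and Keap1 (-0.094 to 0.00096), both turned without control replicate 2, Osgin1 (-0.090 to 0.0036, turned without JG-98 replicate 3), and Sod1 (-1.05 to 0.51, turned without JG-98 replicate 3, and 0.21 with array weights). The cause was not tested, except that for Sod1 both settings remove or down-weight its 1 low array. With the replicate number as a block, the smallest member limma adjusted p was 0.64. Deviations of same-numbered arrays from their group means correlated at 0.095, -0.13 and 0.10. The labels do not say that a shared number marks a pair, so the numbers were not taken as pairs.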
